A study of Mus musculus with 4 samples.

Results

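The genes examined here encode the protein parts of the splicing machinery whose symbols begin with Snrp, Lsm and a digit, Sf3a or Sf3b, Srsf and a digit, Hnrnp or U2af. They were picked by symbol from the gene table of RNA-seq libraries of mouse ESCs with and without PIM3, a serine and threonine kinase. There were 69 members among 55418 genes, after 4 pseudogenes with "-ps" in the symbol had been left out. By role they fell into 12 core snRNP genes, 9 SF3 genes, 3 U2AF genes, 13 LSm genes, 11 SR genes and 20 hnRNP genes, and 1 gene, Snrpert, was placed in no group. The cells were E14 ESCs of strain 12910la, grown on gelatin in serum with LIF, the cytokine that keeps ESCs undifferentiated. RNA came from 2 WT samples and from 2 Pim3-/- clones made with CRISPR/Cas9, 1 library each, and no cell received a further agent. Each Pim3-/- replicate is therefore a different clone, and an effect of the genotype cannot be told apart from differences among these few clones and cultures. Libraries were made from mRNA of DNase-treated total RNA, and the values are raw read counts per gene.

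Introns are removed from pre-mRNA by the spliceosome, which is built on each intron from small nuclear ribonucleoproteins (snRNPs). The U1, U2, U4 and U5 snRNPs each carry a ring of Sm proteins around their RNA, and the U6 snRNP carries the related ring of LSm proteins. The U2AF dimer and the SF3a and SF3b complexes bring the U2 snRNP to the branch point and the 3′ splice site. SR proteins bind exons and mostly promote the use of nearby splice sites, while hnRNP proteins coat nascent RNA and often act against them. Many SR and hnRNP genes contain poison exons, whose inclusion sends their own mRNA to nonsense-mediated decay. In ESCs these factors are abundant, and reduced splicing activity has been linked to the 2-cell-like (2C-like) state, the subject of the study.

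To show the start regions of genes on which the results turn, the 250 bases before the annotated start are printed below for the member with the lowest fold change in the core snRNP, SF3, SR and hnRNP groups, for Lsm3, the second lowest LSm gene, and for Lsm14b, the only member whose expression was higher in Pim3-/- ESCs. The sequences are those of RefSeq on GRCm38.p6, written 5′ to 3′ on the strand of the gene, and capitals mark matches to GGGCGG (SP and KLF factors), CCGGAA (ETS factors) or CCAAT (NF-Y) on either strand.
Snrpe (chr1:133610281-133610530, minus strand): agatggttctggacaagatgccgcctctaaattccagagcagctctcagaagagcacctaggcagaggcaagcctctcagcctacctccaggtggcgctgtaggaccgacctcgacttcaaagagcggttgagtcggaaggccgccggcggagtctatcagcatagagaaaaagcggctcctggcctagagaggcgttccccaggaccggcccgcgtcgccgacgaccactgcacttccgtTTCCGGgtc
Sf3b6 (chr12:4817358-4817607, plus strand): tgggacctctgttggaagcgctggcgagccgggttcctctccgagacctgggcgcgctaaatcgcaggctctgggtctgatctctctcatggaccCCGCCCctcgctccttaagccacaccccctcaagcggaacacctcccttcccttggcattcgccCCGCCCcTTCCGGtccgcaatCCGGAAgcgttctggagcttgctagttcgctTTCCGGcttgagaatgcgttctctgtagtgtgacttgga
Lsm3 (chr6:91515785-91516034, plus strand): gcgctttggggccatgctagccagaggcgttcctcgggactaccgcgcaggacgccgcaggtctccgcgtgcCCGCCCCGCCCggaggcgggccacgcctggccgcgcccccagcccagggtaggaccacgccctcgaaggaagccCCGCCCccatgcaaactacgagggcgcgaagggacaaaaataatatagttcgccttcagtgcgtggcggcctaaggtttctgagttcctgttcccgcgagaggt
Srsf7 (chr17:80207306-80207555, minus strand): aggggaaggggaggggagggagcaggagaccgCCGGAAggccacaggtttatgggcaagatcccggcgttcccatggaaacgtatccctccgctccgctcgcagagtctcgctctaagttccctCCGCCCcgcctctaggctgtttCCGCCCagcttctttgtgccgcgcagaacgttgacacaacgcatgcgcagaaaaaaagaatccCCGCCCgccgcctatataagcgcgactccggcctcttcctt
Hnrnpa1 (chr15:103240147-103240396, plus strand): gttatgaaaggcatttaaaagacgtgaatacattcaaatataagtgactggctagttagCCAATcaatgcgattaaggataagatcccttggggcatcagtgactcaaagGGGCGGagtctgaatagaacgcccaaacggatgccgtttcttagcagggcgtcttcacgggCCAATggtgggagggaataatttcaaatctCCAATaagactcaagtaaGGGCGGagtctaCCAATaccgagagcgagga
Lsm14b (chr2:180024737-180024986, plus strand): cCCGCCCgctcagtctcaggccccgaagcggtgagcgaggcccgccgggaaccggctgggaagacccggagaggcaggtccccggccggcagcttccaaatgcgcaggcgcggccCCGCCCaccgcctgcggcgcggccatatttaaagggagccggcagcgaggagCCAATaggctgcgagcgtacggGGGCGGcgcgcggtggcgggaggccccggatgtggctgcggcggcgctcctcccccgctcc
A pair of the GGGCGG matches of Lsm3 shares a base. The start regions of Sf3b6 and Srsf7 held both GGGCGG and CCGGAA, Snrpe held CCGGAA alone, and Hnrnpa1 held 4 CCAAT and 2 GGGCGG. Start regions were found for 58 members, with 78 windows in all, since some genes have several starts. GGGCGG was in 66.7% of these windows and in 32.7% of the 32851 windows of all genes. CCGGAA was in 37.2% and 12.0%, and CCAAT in 42.3% and 33.8%. The palindrome CACGTG, known as the E-box, was in 6.41% of member windows and 6.02% of all windows. Among the members, GGGCGG was in 58.3% of the 48 windows of genes that fell in Pim3-/- ESCs and in 80.0% of the 30 windows of the others. CCGGAA was in 41.7% and 30.0%. These matches are of letters only and were not tested.

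The libraries held 22029427 to 25668307 counts. Levels are given as CPM, counts per 1e6 counts of the library after scaling by TMM factors, and 3 counts amount to at most 0.157 CPM. The TMM factors, which correct for the composition of each library, were 0.828 and 0.883 for WT and 1.17 in both Pim3-/- libraries, so the choice of scaling bears on every difference. The targeted gene Pim3 was read 4392 and 4953 times in WT and 4970 and 4804 times in the libraries labelled Pim3-/- (log2 fold change -0.27, SE 0.17, adjusted p = 0.251 in edgeR's quasi-likelihood test). The study's clones carry small edits in Pim3, so this count does not check the labels. ESC markers were abundant in all libraries, and 4 of 10 were lower in Pim3-/- ESCs and none higher. Among all tested genes 39.3% were lower at a mean log2 CPM of 6 to 8 and 54.4% over 8, where the median log2 fold change was -0.73. The count of lower ESC markers was thus no higher than the share over 8. Pou5f1, which encodes OCT4, was among the 4, with a mean of 2247 CPM in WT and 1030 CPM in Pim3-/- ESCs (log2 fold change -1.12). Nanog was another (log2 fold change -0.90). By qPCR the study reported Oct4 unchanged and Nanog higher in its Pim3-/- ESCs, and it also showed NANOG protein by western blot. It reported Nanog higher by qPCR after Pim3 shRNA and after the PIM3 inhibitor M-110 as well. Those measures are not scaled like the counts here, and the reason for the difference was not tested. All 5 tested primitive endoderm markers were higher, with a summed level of 2.14 and 3.75 CPM in WT and 29.9 and 16.1 CPM in Pim3-/- ESCs. All 9 markers of the 2C-like state were higher, with 13.2 and 13.6 CPM in WT and 165 and 51.7 CPM in Pim3-/- ESCs. Of all tested genes 17.6% were higher, and the median log2 fold change was 0.86 in genes with a mean log2 CPM under 0 and 0.53 at 0 to 2. Sox7, Sox17, Dab2, Duxf3 and Zscan4b passed the filter on low counts through their reads in the Pim3-/- libraries. Their calls could thus hardly go the other way, and the counts of these 2 lists are descriptions only. Of the fibroblast markers 2 were tested and none passed, with a summed level of 20.3 to 25.5 CPM in every library, and 1 of 5 neuroectoderm markers was lower. The part of these cell states in the results below was not tested, and in bulk RNA fewer cells of a type and less RNA per cell cannot be told apart.

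To see how the expression of the splicing factors differed between the genotypes, all 18444 genes that passed a filter on low counts entered 1 edgeR fit, and p-values were adjusted over all of them. Of the 69 members 68 passed the filter, and Snrpert, with 2, 2, 0 and 1 counts, did not. Expression was lower in Pim3-/- ESCs in 43 of the 68 tested members, higher in 1 and not called in 24, taking an adjusted p under 0.05 as a call. Of all genes tested, 16.2% were lower and 17.6% higher. At least 2-fold lower were 21 members, against 7.82% of all tested genes. In 60 members both Pim3-/- libraries lay below both WT libraries, and in 3 members above both, against 34.2% and 38.3% of all tested genes. The median log2 fold change of the members was -0.73, while that of all tested genes was 0.07.

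**Figure D1:**
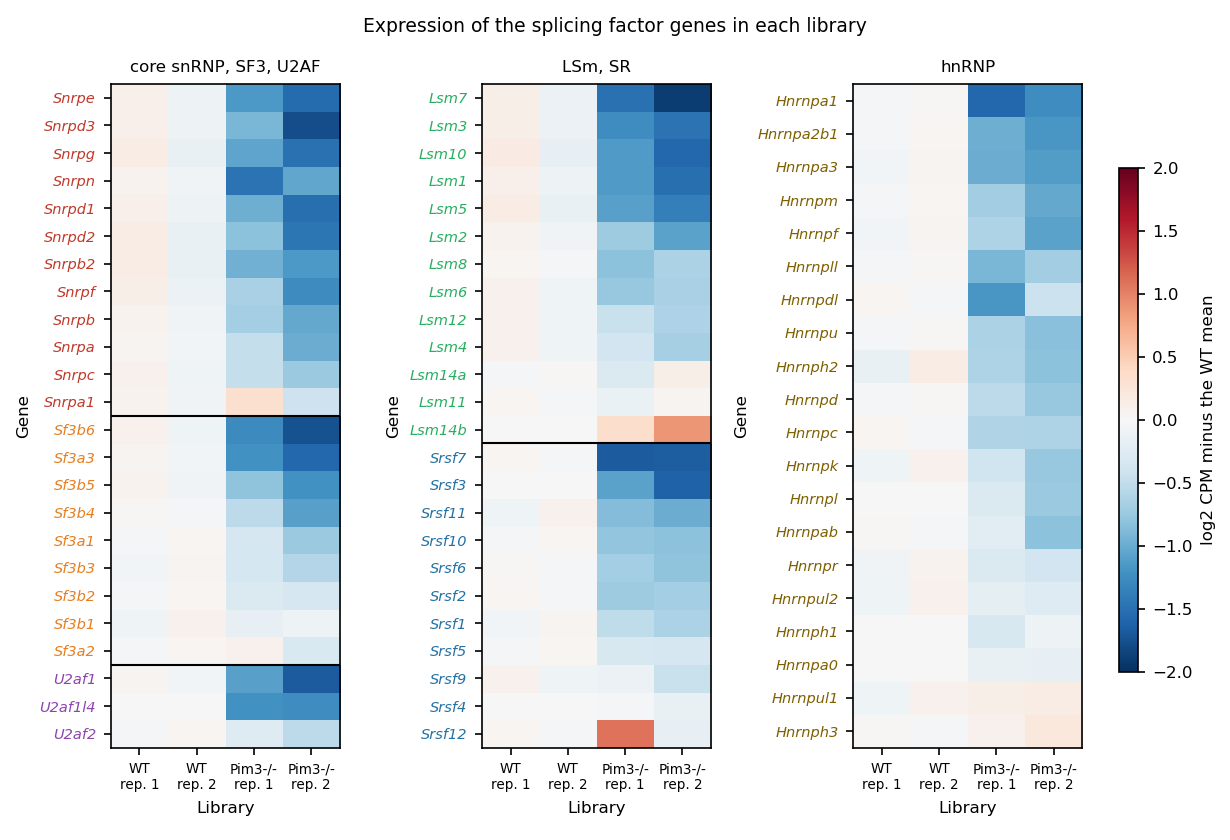
Expression of the 68 tested members in the 4 libraries, as log2 CPM minus the mean of the WT libraries (colour, from -2 to 2), with 1 row per gene ordered by fold change within each group and gene names coloured by group. Nearly all rows are blue in both Pim3-/- libraries, and Lsm14b and Srsf12 hold the strongest red cells.

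The calls depended on which libraries were in the fit. The correlation of log2 CPM was 0.990 between the WT libraries and 0.968 between the Pim3-/- libraries, so the clones differed more. Without a WT library the spread comes from the clones alone, and without a clone from the WT libraries alone. Without WT replicate 1 no member passed the adjusted threshold in edgeR's test, while 31 were lower at an unadjusted p under 0.05. Of all tested genes 0.0271% were lower at the adjusted and 10.5% at the unadjusted threshold. Without WT replicate 2 the 2 members called were Lsm7 and Srsf7, against 0.569% of all tested genes. The Wald test of DESeq2 called 14 members lower without WT replicate 1 and 23 without WT replicate 2, against 2.62% and 6.42%. The median of the members was -0.69 and -0.78 in the edgeR fits of these libraries. Omission of a Pim3-/- library left 54 members lower without replicate 1 and 46 without replicate 2, against 27.9% and 25.6% of all tested genes. With all libraries, 44 members were lower and 0 higher with the size factors of DESeq2 (17.3% and 16.2% of all tested genes), 43 and 0 with no filter (9.47% and 9.1%), 38 and 1 with at least 10 counts in every library (15.7% and 16.9%), and 47 and 0 in the Wald test of DESeq2 (17.3% and 13.9%).

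The Sm ring, which every spliceosomal snRNP but U6 carries, fell throughout. All 8 of its genes were lower in Pim3-/- ESCs, by 0.85 to 1.33 on the log2 scale, and in each of them both Pim3-/- libraries lay below both WT libraries. Snrpe, on the minus strand at chr1:133603871-133610291 (GRCm38), had 293 and 255 CPM in WT and 123 and 94.3 CPM in Pim3-/- ESCs. These rest on 5607, 5777, 3289 and 2432 reads. The change of Snrpe was the lowest of the ring (log2 fold change -1.33, SE 0.20, adjusted p = 0.00559). Snrpd3, a subunit of the SmD3-SmB pair, had 495 and 435 CPM in WT and 245 and 135 CPM in Pim3-/- ESCs (log2 fold change -1.29, SE 0.29, adjusted p = 0.0149). Its libraries did not overlap, but the Pim3-/- replicates lay far apart. Snrpg, Snrpd1 and Snrpd2 fell by 1.26, 1.22 and 1.10 on the log2 scale. Snrpf had the highest level per length, with a mean of 355 CPM per kilobase of merged exons in WT and 186 in Pim3-/- ESCs (log2 fold change -0.93, SE 0.24, adjusted p = 0.023). Of its 100-base stretches 78.3% also lie in other genes, and the gene Ccdc38 on the opposite strand had 6081, 6120, 4926 and 3181 counts where Snrpf had 6354, 6345, 5164 and 3276. A further gene on the opposite strand, 4933408J17Rik, had 5318, 5565, 4404 and 2824 counts. Reads of Snrpf may be among those of these genes, or theirs among those of Snrpf. Neither was tested, so the value of Snrpf is uncertain.

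Snrpb and Snrpn encode the near-identical proteins SmB/B′ and SmN, of which SmN is made from an imprinted locus. Snrpb had 343 and 311 CPM in WT and 203 and 161 CPM in Pim3-/- ESCs and had the smallest change of the ring (log2 fold change -0.85, SE 0.20, adjusted p = 0.0167). Snrpn had 218 and 197 CPM in WT and 74.9 and 101 CPM in Pim3-/- ESCs (log2 fold change -1.24, SE 0.20, adjusted p = 0.00636). Unlike the rest of the ring, Snrpn was lower in replicate 1 than in replicate 2. Of the reads on the pair, Snrpn held 38.9% and 38.8% in WT, 26.96% in Pim3-/- replicate 1 (95% Wilson interval 25.96 to 27.98%) and 38.5% in replicate 2 (37.3 to 39.7%). Thus the balance of the pair differed between the clones, and replicate 2 was at the WT value within counting error, which is all these intervals cover. Snrpn overlaps Snurf and Gm38393 on the same strand, and 19.2% of its stretches are shared with other genes.

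Among the genes for proteins of the U1 and U2 snRNPs, 3 of 4 fell, while 39.3% of all tested genes with a mean log2 CPM of 6 to 8 were lower. Snrpb2, which encodes the B″ protein of the U2 snRNP, had 200 and 165 CPM in WT and 93.3 and 81.5 CPM in Pim3-/- ESCs (log2 fold change -1.06, SE 0.19, adjusted p = 0.00761). Snrpa, which encodes the A protein of the U1 snRNP, had the highest level per length of the 4, with 97.4 CPM per kilobase in WT. It stood at 300 and 278 CPM in WT and 207 and 145 CPM in Pim3-/- ESCs (log2 fold change -0.71, SE 0.22, adjusted p = 0.0398). Snrpc, which encodes the C protein of the same snRNP, fell by 0.61 on the log2 scale. Snrpa1, which encodes the A′ protein of U2, the partner of B″, had 185 and 169 CPM in WT and 220 and 132 CPM in Pim3-/- ESCs. Its Pim3-/- replicates lay on either side of WT, and the log2 fold change was -0.003, with an interval from -0.59 to 0.58 (adjusted p = 0.994). The genes of this U2 protein pair thus gave different results, and the difference between them was not tested.

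Of the SF3 genes 4 of 9 fell, while 39.3% of all tested genes with a mean log2 CPM of 6 to 8 were lower. In SF3a, Sf3a3 had 274 and 256 CPM in WT and 114 and 89.3 CPM in Pim3-/- ESCs (log2 fold change -1.38, SE 0.19, adjusted p = 0.00486). Its partners in the complex did not pass the test. Sf3a1 had 200 and 214 CPM in WT and 164 and 124 CPM in Pim3-/- ESCs (log2 fold change -0.52, SE 0.20, adjusted p = 0.0749). Sf3a2 had 72.4 and 76.7 CPM in WT and 79.2 and 60.6 CPM in Pim3-/- ESCs, and these groups overlapped (log2 fold change -0.09, SE 0.19, adjusted p = 0.722).

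In SF3b the smaller subunits fell. Sf3b6, the branch point-contacting p14 protein, encoded at chr12:4817544-4827659, had 183 and 163 CPM in WT and 71.4 and 51.9 CPM in Pim3-/- ESCs. These rest on 3500, 3702, 1907 and 1337 reads, and the change was the largest among the SF3 genes (log2 fold change -1.49, SE 0.21, adjusted p = 0.00474). Sf3b5 had 219 and 197 CPM in WT and 119 and 89.8 CPM in Pim3-/- ESCs (log2 fold change -0.996, SE 0.20, adjusted p = 0.011). Sf3b4 had the highest level per length in WT among the members named Sf3b (66.0 CPM per kilobase). It had 144 and 141 CPM in WT and 98.8 and 67.2 CPM in Pim3-/- ESCs (log2 fold change -0.78, SE 0.22, adjusted p = 0.0284). The large subunits Sf3b1, Sf3b2 and Sf3b3 were not called. Sf3b1, which encodes the scaffold that holds the branch helix, had 229 and 259 CPM in WT and 218 and 226 CPM in Pim3-/- ESCs (log2 fold change -0.14, SE 0.18, adjusted p = 0.576).

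U2AF recognizes the 3′ splice site, and its small subunit was lower in Pim3-/- ESCs. U2af1, the small subunit that reads the AG, had 486 and 454 CPM in WT and 221 and 148 CPM in Pim3-/- ESCs, from 9308, 10284, 5895 and 3820 reads (log2 fold change -1.35, SE 0.24, adjusted p = 0.00737). Its paralogue U2af1l4 had 34.6 and 34.5 CPM in WT and 15.0 and 14.7 CPM in Pim3-/- ESCs (log2 fold change -1.22, SE 0.17, adjusted p = 0.00474). The replicates of U2af1l4 lay close together, although 30.3% of its stretches are shared with other genes, Gm49396 among them. U2af2, the large subunit that binds the polypyrimidine tract, had 300 and 316 CPM in WT and 258 and 214 CPM in Pim3-/- ESCs and did not pass (log2 fold change -0.38, SE 0.19, adjusted p = 0.148). Of the reads on U2af1 and U2af1l4 together, the paralogue held 6.65% and 7.06% in WT and 6.35% and 9.004% in Pim3-/- ESCs.

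In the LSm group 9 of 13 genes fell and 1 rose. Of all tested genes 22.4% were lower at a mean log2 CPM of 4 to 6 and 39.3% at 6 to 8. The ring of the U6 snRNP, made of LSm2 to LSm8, fell in 6 of 7 genes, with a median log2 fold change of -0.88. Lsm7, at chr10:80852821-80855209, had the largest change of all members. It stood at 187 and 157 CPM in WT and 60.9 and 46.0 CPM in Pim3-/- ESCs, from 3583, 3563, 1626 and 1186 reads (log2 fold change -1.69, SE 0.21, adjusted p = 0.00385). Lsm3 had 187 and 160 CPM in WT and 72.8 and 62.1 CPM in Pim3-/- ESCs (log2 fold change -1.36, SE 0.18, adjusted p = 0.00457). Lsm5, Lsm2, Lsm8 and Lsm6 fell by 1.22, 0.88, 0.73 and 0.71 on the log2 scale, and in Lsm8 and Lsm6 replicate 1 was the lower of the clones. Lsm4 had the highest level per length, with 238 CPM per kilobase in WT, and was not called. It had 262 and 232 CPM in WT and 189 and 155 CPM in Pim3-/- ESCs (log2 fold change -0.52, SE 0.19, adjusted p = 0.0674).

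LSm proteins outside the U6 ring were mixed. LSm1 replaces LSm8 in the cytoplasmic ring that acts in mRNA decay, and LSm10 and LSm11 belong to the U7 snRNP, which processes histone mRNA. Lsm10 had 25.3 and 20.3 CPM in WT and 10.3 and 7.60 CPM in Pim3-/- ESCs (log2 fold change -1.35, SE 0.24, adjusted p = 0.00778). Lsm11, its partner in the U7 ring, had 15.5 and 14.6 CPM in WT and 13.8 and 15.6 CPM in Pim3-/- ESCs and was not called. Lsm1 had 74.1 and 64.3 CPM in WT and 31.6 and 24.3 CPM in Pim3-/- ESCs (log2 fold change -1.31, SE 0.19, adjusted p = 0.00525). Lsm12, with the highest level per length of these genes, had 113 and 99.1 CPM in WT and 77.3 and 68.9 CPM in Pim3-/- ESCs (log2 fold change -0.54, SE 0.17, adjusted p = 0.0452). The paralogues Lsm14a and Lsm14b encode RNA-binding proteins of cytoplasmic mRNP granules. Lsm14b, at chr2:180024987-180035465, rose from 49.0 and 50.1 CPM to 63.06 and 90.97 CPM, from 939, 1134, 1683 and 2345 reads (log2 fold change 0.64, SE 0.21, adjusted p = 0.0483). Its groups did not overlap, but the call was close to the threshold, and the size factors of DESeq2, the test of DESeq2 and the absence of a filter each ended it. Lsm14a had 156 and 160 CPM in WT and 130 and 172 CPM in Pim3-/- ESCs, and its groups overlapped (adjusted p = 0.803).

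Of the SR genes 7 of 11 fell and none rose, while 39.3% of all tested genes with a mean log2 CPM of 6 to 8 were lower. Srsf7, at chr17:80200080-80207307, encodes an SR protein with a zinc knuckle that also takes part in polyadenylation and mRNA export. It had 319 and 300 CPM in WT and 98.1 and 98.2 CPM in Pim3-/- ESCs, from 6119, 6792, 2618 and 2532 reads (log2 fold change -1.66, SE 0.17, adjusted p = 0.00304). The Pim3-/- replicates were nearly equal, and the adjusted p was the smallest among all members. Srsf3, its close relative, had 369 and 361 CPM in WT and 174 and 119 CPM in Pim3-/- ESCs (log2 fold change -1.32, SE 0.23, adjusted p = 0.00721). Together these 2 genes held 30.1% and 29.2% of the reads on SR genes in WT and 19.8% and 17.1% in Pim3-/- ESCs. They have the lowest fold changes of the SR genes, so a lower share follows from their choice and only restates these changes. The 95% Wilson intervals reached 0.430 percentage points at most to either side, and they cover counting error alone. Srsf2, with the highest level per length in WT (150 CPM per kilobase), had 454 and 431 CPM in WT and 269 and 276 CPM in Pim3-/- ESCs (log2 fold change -0.70, SE 0.18, adjusted p = 0.0228). Srsf11, Srsf10, Srsf6 and Srsf1 fell by 0.93, 0.80, 0.74 and 0.57 on the log2 scale. Srsf5, Srsf9 and Srsf4 had log2 fold changes of -0.33 to -0.09 and were not called. Srsf12 was scarce, with 24 and 27 reads in WT and 69 and 28 in Pim3-/- ESCs, and its groups overlapped (log2 fold change 0.59, SE 0.50, adjusted p = 0.388).

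The hnRNP genes were divided, with 10 of 20 lower and none higher, while 54.4% of all tested genes with a mean log2 CPM over 8 were lower. The lowest values were those of Hnrnpa1, Hnrnpa2b1 and Hnrnpa3, of the A/B family, whose proteins commonly favour exon skipping, while Hnrnpa0 and Hnrnpab, which carry A/B names too, were not called. Hnrnpa1, at chr15:103240432-103246692, had 1917 and 1963 CPM in WT and 651 and 817 CPM in Pim3-/- ESCs, from 36719, 44439, 17365 and 21061 reads (log2 fold change -1.40, SE 0.22, adjusted p = 0.00592). It had the highest level per length of all members, 615 CPM per kilobase in WT and 233 in Pim3-/- ESCs. Hnrnpa2b1 had 1173 and 1246 CPM in WT and 616 and 542 CPM in Pim3-/- ESCs (log2 fold change -1.06, SE 0.20, adjusted p = 0.00945). Hnrnpa3 had 1441 and 1541 CPM in WT and 748 and 690 CPM in Pim3-/- ESCs (log2 fold change -1.05, SE 0.20, adjusted p = 0.00983). Hnrnpa1 was the only one of the 3 that was lower in replicate 1 than in replicate 2. Their joint share of the reads on hnRNP genes was 38.3% and 38.7% in WT and 26.8% and 30.4% in Pim3-/- ESCs. As these 3 genes were put together for the lowest fold changes of the group, a lower share follows from that choice and only restates them. Other genes, most of them processed pseudogenes, share 25.9% of the stretches of Hnrnpa1 and 25.6% of those of Hnrnpa3. The main copy of Hnrnpa1, Gm10052, had 1315, 1615, 600 and 923 counts, in the same order of libraries as Hnrnpa1.

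The other hnRNP genes had smaller changes. Hnrnpm, Hnrnpf, Hnrnpll, Hnrnpu, Hnrnph2, Hnrnpd and Hnrnpc fell by 0.60 to 0.85 on the log2 scale. The paralogues Hnrnph1 and Hnrnph2 encode proteins that bind runs of G. Hnrnph2, on the X chromosome, had 74.7 and 91.4 CPM in WT and 54.1 and 46.8 CPM in Pim3-/- ESCs (log2 fold change -0.72, SE 0.18, adjusted p = 0.0214). Hnrnph1 had 291 and 295 CPM in WT and 235 and 273 CPM in Pim3-/- ESCs and was not called (log2 fold change -0.21, SE 0.18, adjusted p = 0.404). Hnrnph3 had the highest value of the group, with 77.7 and 75.0 CPM in WT and 81.1 and 88.6 CPM in Pim3-/- ESCs (log2 fold change 0.15, SE 0.16, adjusted p = 0.484). Hnrnpdl, a relative of Hnrnpd, differed most between the clones among the hnRNP genes, with 231 and 220 CPM in WT and 101 and 167 CPM in Pim3-/- ESCs (log2 fold change -0.75, SE 0.25, adjusted p = 0.0536). Hnrnpk, Hnrnpl, Hnrnpab, Hnrnpr, Hnrnpul2 and Hnrnpa0 had log2 fold changes of -0.57 to -0.16, Hnrnpul1 of 0.13, and none of them passed.

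**Figure D2:**
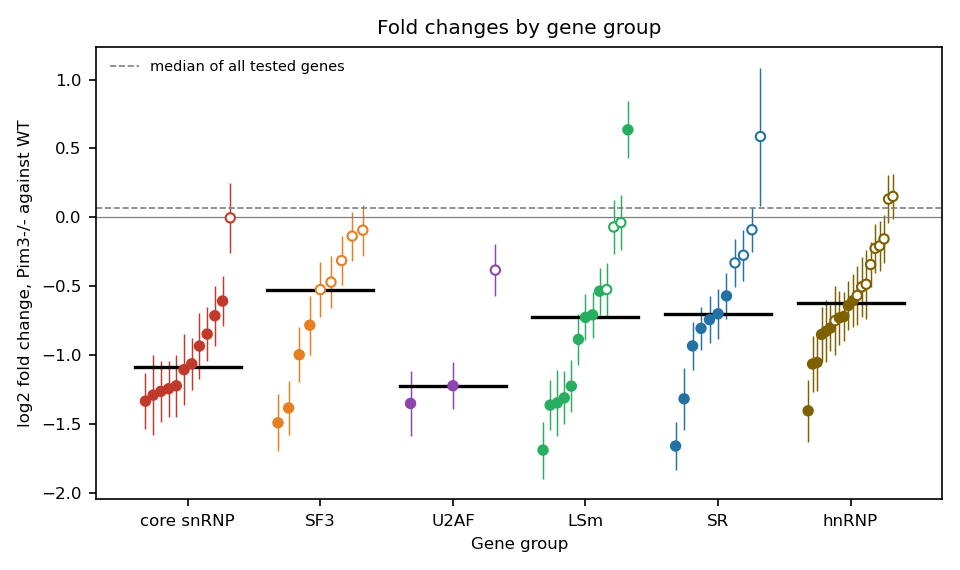
Log2 fold change of Pim3-/- against WT for each tested member by gene group, with bars of 1 SE from the edgeR fit. Filled points passed an adjusted p under 0.05, open points did not, black lines are group medians, and the dashed line is the median of all tested genes (0.07). All core snRNP points but Snrpa1 are filled, while 5 of 9 SF3 points and 10 of 20 hnRNP points are open.

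When the groups were set side by side, the core snRNP genes had a median of -1.08 with 11 of 12 lower. LSm genes had -0.73 with 9 of 13, SR genes -0.70 with 7 of 11, hnRNP genes -0.62 with 10 of 20, and SF3 genes -0.52 with 4 of 9. Of all tested genes 16.2% were lower, with 39.3% at a mean log2 CPM of 6 to 8 and 54.4% over 8. The median log2 CPM was 7.46 for SF3 and 8.42 for hnRNP genes, so the counts of these 2 groups were near the share at their level. The 3 U2AF genes had a median of -1.22. Differences between groups were not tested, so no order of the groups is drawn from these medians. Scaled by library totals, without TMM factors, the medians were -0.63 for core snRNP, -0.27 for LSm, -0.25 for SR, -0.17 for hnRNP and -0.073 for SF3 genes, while the median of all tested genes was 0.52. Of the members 20 were then lower and 3 higher, against 5.92% and 35.8% of all tested genes. The scalings thus shift all genes by 0.45 on the log2 scale, and relative to the median of all genes the members lay at -0.79 under either.

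**Figure D3:**
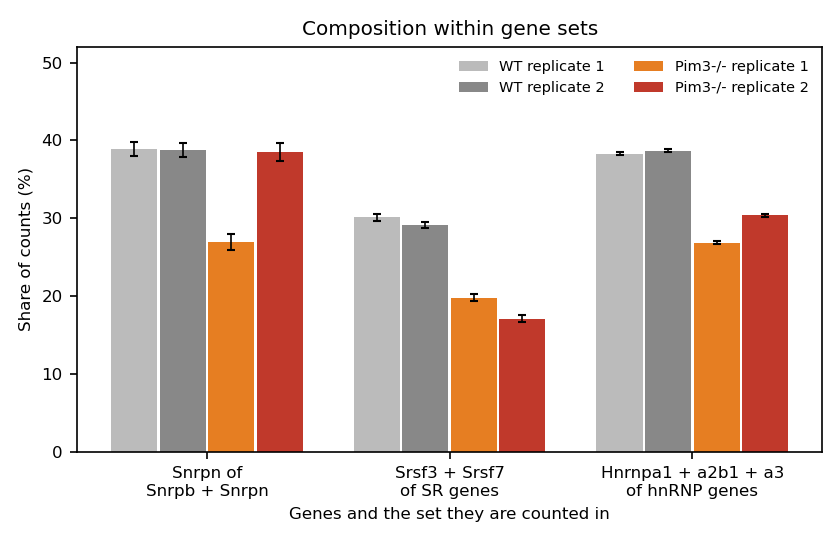
Share of the counts of a gene set held by the named genes in each library, in percent, with 95% Wilson intervals for counting error as bars. The Srsf3 and Srsf7 share was 30.1 and 29.2% in WT and 19.8 and 17.1% in Pim3-/- ESCs, and the Snrpn share was 26.96% in Pim3-/- replicate 1 and 38.5 to 38.9% in the other libraries. The named SR and hnRNP genes have the lowest fold changes of their groups in these data, so their lower shares follow from that choice.

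The fold change of all genes varied with expression level, and the members were highly expressed. Of the 68 tested members 40 had a mean log2 CPM of 6 to 8 and 21 one over 8. Among all genes at 6 to 8 the median log2 fold change was -0.41 and 39.3% were lower in Pim3-/- ESCs, while 27 of the 40 members were lower, with a median of -0.73. Among all genes over 8 the median was -0.73 and 54.4% were lower, and 12 of 21 members were lower with a median of -0.70. At the highest level the share of the members was therefore near that of all genes. When log2 CPM were made level across expression by cyclic loess, an alternative chosen after seeing the data, 17 members were lower and 2 higher, against 12.3% and 13.6% of all tested genes. The medians were then -0.56 for core snRNP, -0.36 for LSm, -0.13 for SR, -0.033 for SF3 and -0.0049 for hnRNP genes, and 5, 5, 3, 2 and 0 of them were lower. In that fit the median of the 8 Sm ring genes was -0.71, against -1.23 with TMM factors.

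**Figure D4:**
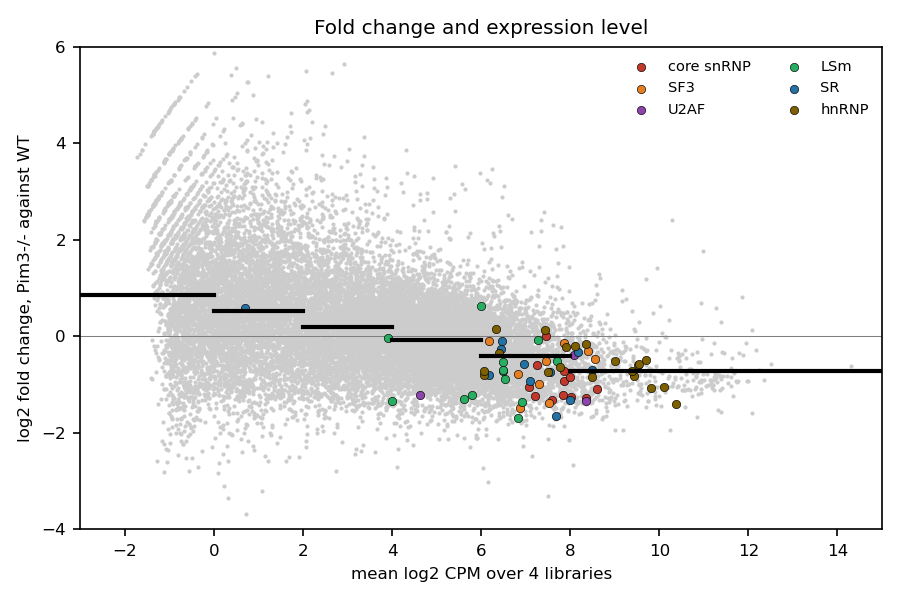
Log2 fold change of Pim3-/- against WT and mean log2 CPM over the 4 libraries for all tested genes (grey) and the members (coloured by group), with black lines for the median of all tested genes in each class of expression. The black lines step down from 0.86 under 0 to -0.73 over 8, and most hnRNP points over 8 lie near the last line. A few genes beyond the vertical axis are not drawn.

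Transcript length moved with the fold change as well. The Spearman correlation of log2 fold change with the median length of coding transcripts was 0.44 over the 68 members and 0.34 over 14389 tested genes, as a description over genes of the same libraries. The 17 members with transcripts under 1000 bases, 6 of LSm2 to LSm8 and 3 of the Sm ring among them, had a median of -1.22, and 13 were lower. All genes of that length had a median of -0.36, with 34.9% lower. Among genes with a mean log2 CPM of 6 or more, those under 1000 bases had a median of -0.81 with 60.8% lower, and the 14 members of this kind had -0.91 with 10 lower. At 1000 to 2000 bases the 21 members had -0.85 with 18 lower, and all such genes -0.64 with 51.95% lower. At 2000 to 3000 bases the 17 members had -0.50 with 7 lower, and all such genes -0.29 with 28.8% lower. At 3000 to 4000 bases the 4 members had -0.80 with 3 lower, and all such genes -0.20 with 24.1% lower. Over 4000 bases the 5 members had -0.47 with 1 lower, and all such genes 0.048 with 14.8% lower. The part of expression level and length in the results was not tested.

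The clones differed in how far the members lay below WT. In 53 of 68 members the value was lower in Pim3-/- replicate 2 than in replicate 1, against 52.9% of all tested genes, and the median difference was -0.23 on the log2 scale. For the core snRNP genes it was -0.47, with 11 of 12 lower in replicate 2, and for SF3 genes -0.38, while SR and hnRNP genes differed by -0.12 and -0.11. The WT libraries differed in the core snRNP genes too, with 12 of 12 lower in WT replicate 2 and a median of -0.19. In the Sm ring 8 of 8 were lower there, with a median of -0.21. For SF3 genes the WT difference was 0.068, with 4 of 9 lower, and for all tested genes it was 0.0027. The Sm ring had a median of -0.95 below WT in replicate 1 and of -1.47 in replicate 2. All members together held 1.86% and 1.96% of all counts in WT, 1.62% in replicate 1 and 1.41% in replicate 2. The summed 2C markers, at 165 CPM in replicate 1 and 51.7 CPM in replicate 2, lay further from WT in replicate 1, while most members lay further from WT in replicate 2. The clones were not compared by a test, as each is a single library.

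**Figure D5:**
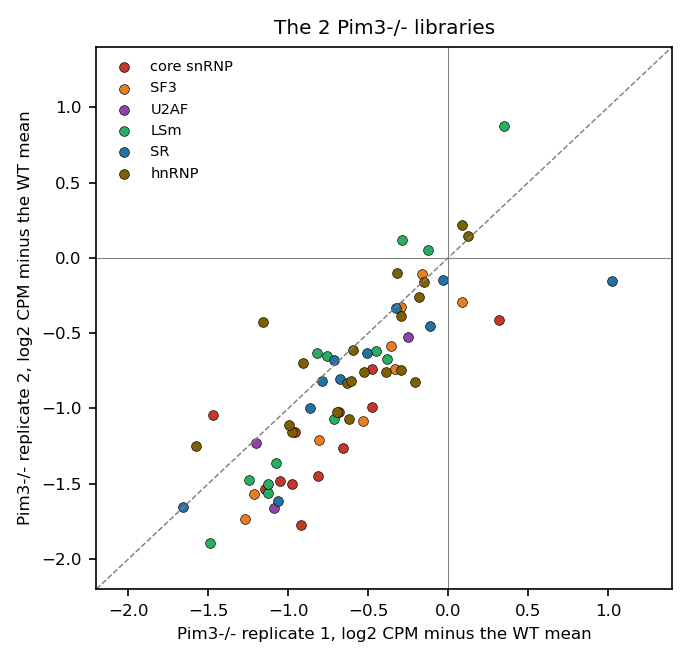
Log2 CPM minus the WT mean of each tested member in Pim3-/- replicate 1 (horizontal) and replicate 2 (vertical), coloured by group, with a dashed line of equal values. Most core snRNP points lie below the line, while Snrpn, Hnrnpa1 and Hnrnpdl lie above it and Srsf12 lies far to the right.

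To place the members among the rest of the machinery, other splicing genes were taken from lists of their complexes. Their counts stand beside 16.2% lower and 17.6% higher among all tested genes, and beside 22.4% and 39.3% lower among all genes with a mean log2 CPM of 4 to 6 and of 6 to 8. Of 39 tested genes of the U snRNPs, such as the U4/U6 and U5 proteins, 15 were lower and none higher, with a median of -0.40. The lowest were Ppih, a cyclophilin of the U4/U6 snRNP (-1.71, SE 0.24, adjusted p = 0.00474), and Prpf31 of the same particle (-1.37, SE 0.28, adjusted p = 0.0113). Of 36 genes of the Prp19 complex and the catalytic step 18 were lower and 2 higher. Bud31 and Magoh, a subunit of the exon junction complex, had -1.66 and -1.63, while Srrm2 and Casc3 rose by 0.63 and 0.59. Of 20 genes of snRNP assembly, which loads the Sm ring onto the RNA, 11 were lower and none higher, with Clns1a, the chaperone of Sm proteins, at -1.21 and Gemin6 of the SMN complex at -1.19. Of 19 tested SR kinases and SR-related genes 6 were lower, with Tra2b at -1.25 and Clk4 at -1.18, and none higher. Of 30 other RNA-binding genes 7 were lower, with Tardbp at -1.59 and Esrp1 at -1.15, and none higher. The median of the last list was -0.19. For the U snRNP, SR-related and other RNA-binding lists the counts of lower genes were thus no higher than the share among all genes at a mean log2 CPM of 6 to 8.

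Reads that fit more than 1 gene limit some of these values, because the handling of strand and of multiply mapped reads is not given in the sources used here. In 17 members, the untested Snrpert among them, over 10% of the 100-base stretches of the annotated transcripts also occur in other genes. Without them 31 members were lower and 1 higher, against 16.2% and 17.6% of all tested genes, and the median was -0.71. Beside Snrpf, the largest shares among tested members were in Hnrnpf with 49.4%, Srsf4 with 36.3% and Sf3b4 with 32.5%. Srsf4 overlaps Gm12992 on the opposite strand, and Hnrnpab overlaps Phykpl, which had 12907, 13925, 14021 and 9078 counts beside 19000, 21751, 22532 and 14216 for Hnrnpab.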

How the data were processed

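RNA-seq libraries of 2 WT samples and 2 Pim3-/- clones of E14 ESCs were compared. The authors deposited raw counts per gene, without normalization. Their methods name Cutadapt, Hisat2, the mm10 assembly and Ensembl genes, while the submitters' processing notes list Trim Galore, STAR, featureCounts and GRCm38, and the handling of strand and of multiply mapped reads is not given in the sources used here. Counts of repeat families and the sequencing reads were not used here. Each library held 22029427 to 25668307 counts.

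Members were taken by symbol. They, their groups and the other lists were chosen with earlier results of these data known. Members described in full were the 2 lowest and the highest by fold change and the highest by CPM per kilobase in each role, all genes of roles with up to 3, those called higher, and 4 pairs of paralogues. Of the other lists, the 2 lowest and the 2 highest called genes were eligible. Genes were filtered with filterByExpr of edgeR 4.0.16 (minimum count 10, total 15), which kept 18444 of 31418 genes with a count, and scaled by TMM factors. The genotypes were compared by the quasi-likelihood test of edgeR (Benjamini-Hochberg adjustment over every tested gene), and an adjusted p under 0.05 was called. Errors are standard errors (SE) of the fit with 2 libraries a group. The script was tested on simulated counts. The p-values measure the spread between these libraries only.

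Alternatives were the size factors of DESeq2 1.42.0, library totals, the Wald test of DESeq2 and no filter. The study's methods name a Wald test for expression, without its program. Further alternatives were a minimum of 10 counts in each library, the replicate number as a block and the omission of each library. Cyclic loess (limma 3.58.1), the Wald test without a WT library and the omission of members with over 10% shared stretches were chosen after seeing the data. R 4.3.3 and Python 3.11.15 were used. Coordinates and exon lengths are from GENCODE M21 (GRCm38), and start regions from RefSeq on GRCm38.p6.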

Additional observations from a re-analysis of the deposited data

How the results depend on the processing

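With library totals 20 members were lower and 3 higher, the median of all members was -0.27, and the medians were -0.63 for core snRNP (6 lower), -0.073 for SF3 (2 lower), -0.27 for LSm (5 lower), -0.25 for SR (2 lower) and -0.17 for hnRNP genes (3 lower). With cyclic loess 17 were lower and 2 higher, the median was -0.24, and the group medians were -0.56, -0.033, -0.36, -0.13 and -0.0049, with 5, 2, 5, 3 and 0 lower. The 0 hnRNP calls compare with 12 in the Wald test of DESeq2. With the size factors of DESeq2, no filter and the Wald test of DESeq2, 44, 43 and 47 members were lower and 0 higher, and the median of the SR genes was -0.74, -0.73 and -0.74. With at least 10 counts in every library 38 members were lower, and the medians of the LSm and SR genes were -0.64 and -0.62. Without members with over 10% shared stretches the median of the SR genes was -0.74, and 6 hnRNP genes were lower, from fewer genes.

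Leaving out 1 library gave 0 to 54 members lower and 0 to 2 higher and a median of -0.81 to -0.65. By group, 0 to 12 core snRNP genes were lower (median -1.24 to -0.87), 0 to 6 SF3 (-0.74 to -0.36), 0 to 10 LSm (-0.80 to -0.66), 0 to 8 SR (-0.75 to -0.64) and 0 to 15 hnRNP genes (-0.75 to -0.56). In these fits the lone library of a group is assumed to vary like those of the other group. The lowest counts came without WT replicate 1, where the Wald test of DESeq2 called 14, and without WT replicate 2, where it called 23. With the replicate number as a block 43 members were lower and 1 higher, as without it, although 1 member lost and 1 gained a call. Same-numbered libraries did not deviate together (correlation 0.020). As the clones differ widely from each other, this value cannot exclude that the numbers pair the libraries.

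Log2 fold changes that turned positive were, with library totals, Sf3b1 0.31, Srsf4 0.36, Hnrnpr 0.11, Srsf9 0.18, U2af2 0.069, Lsm14a 0.38, Snrpa1 0.45, Sf3a2 0.36, Lsm11 0.42, Hnrnph1 0.25, Srsf5 0.12, Hnrnpa0 0.30, Sf3b2 0.14 and Hnrnpul2 0.23. With cyclic loess they were Sf3b1 0.41, Srsf4 0.28, Hnrnpr 0.015, Srsf9 0.085, U2af2 0.18, Hnrnpl 0.16, Lsm14a 0.42, Snrpa1 0.48, Lsm4 0.00095, Sf3b3 0.15, Sf3a2 0.22, Hnrnph1 0.37, Hnrnpab 0.25, Srsf5 0.25, Hnrnpa0 0.45, Hnrnpk 0.15, Hnrnpc 0.12, Sf3b2 0.29 and Hnrnpul2 0.33. With at least 10 counts in every library Lsm14a was 0.011, Snrpa1 0.077 and Lsm11 0.043. Without 1 library the log2 fold change ranged from -0.17 to 1.08 for Srsf12, -0.29 to 0.12 for Lsm14a, -0.13 to 0.050 for Lsm11, -0.42 to 0.32 for Snrpa1 and -0.30 to 0.087 for Sf3a2, and for each of these genes its sign turned in at least 1 such fit. Of these genes Hnrnpc alone had been called lower. Apart from the scaling itself, the causes were not tested.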
